A study of Mus musculus with 3 samples.

Results

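Dual-specificity MAP kinase phosphatases are enzymes that switch off MAP kinases by removing phosphate from both the threonine and the tyrosine of the activation loop. Their level was followed here for 7 genes, Dusp1, Dusp2, Dusp4, Dusp5, Dusp6, Dusp10 and Dusp16, which are 7 of the 32285 genes counted in single-cell RNA sequencing of CD45+ cells from 4T1 tumors. The 7 were taken by gene symbol. By substrate they fall into 3 that act mainly on the stress kinases p38 and JNK (Dusp1, Dusp10 and Dusp16), 2 that act on ERK (Dusp5 and Dusp6) and 2 nuclear enzymes with wider substrates (Dusp2 and Dusp4).

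MAP kinase phosphatases form negative feedback loops. ERK signaling induces Dusp5, a nuclear ERK phosphatase, and Dusp6, its cytoplasmic counterpart, while stress, growth factor and toll-like receptor signals induce Dusp1 within minutes, as an immediate-early gene. In macrophages the p38 pathway, through MSK kinases and the factors CREB and ATF1, is among the inputs that switch on Dusp1, and the Dusp1 protein then dephosphorylates p38 and JNK and limits cytokine production. RNA counts measure the transcripts of these enzymes and not their activity.

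4T1 is a mouse mammary carcinoma line, and 4T1-luc is its luciferase-expressing derivative. Female BALB/c mice aged 6 to 8 weeks received 200000 tumor cells in the 4th mammary fat pad and were killed on day 14. The vehicle group carried 4T1-luc tumors wild type for p38a and received DPBS from day 4 for 10 days. The p38i group carried the same tumors and received the p38 inhibitor LY2228820 at 30 mg/kg by daily gavage over the same days. The p38KO group carried a 4T1-derived line grown from 1 clone (p38a-KO-H9) whose p38a gene had been disrupted with CRISPR-Cas9, and the labels name no gavage for it. Inhibitor thus reached tumor and host cells alike, whereas in the p38KO group the sorted leukocytes kept an intact p38a gene (Mapk14). Each group gave 1 library from 3 pooled tumors.

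The 3 libraries held 4588, 6343 and 5212 barcodes for vehicle, p38i and p38KO, of which 3820, 4793 and 3859 passed the filters of at least 1500 UMIs, at least 300 genes and at most 20% mitochondrial counts. A UMI (unique molecular identifier) marks 1 captured transcript, and the kept cells summed to between 20795195 and 24374173 UMIs a library. Cells were sorted in silico by raw counts into 6 gates, neutrophils (Csf3r, Cxcr2), monocytes (Ly6c2, Fn1), macrophages (C1qa), T cells (Cd3e), NK cells (Ncr1) and dendritic cells (Flt3), and between 19.9% and 22.3% of cells stayed ungated. The gates were checked against marker genes that did not define them. Each gate carried its own marker list at a higher summed level than any other gate did, with 1 exception among single markers, Klra8, which was at 0 in NK cells of every library. The median mitochondrial share was 0.671%, 0.968% and 2.10% in vehicle, p38i and p38KO, and the p38KO library held more macrophages (14.9% of kept cells against 4.58% in vehicle). The part of these differences in the results below was not tested. Libraries shared between 5 and 9 barcodes. The knockout itself was not checked, since the sort selected leukocytes, whose Mapk14 is intact, and left few transcripts of tumor cells. With 1 library a group, no test of condition is possible and no p-value is given: ratios compare libraries, and their 95% intervals cover counting error only.

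Levels are given as CPM, the UMIs of a gene per 1000000 UMIs of the gate, with no scaling by gene length because a UMI tags 1 end of a transcript. A ratio to vehicle was called lower or higher when it reached 0.5 on the log2 scale, its exact 95% interval left out 0, and both libraries together held at least 20 counts. The positions below are those of RefSeq on GRCm38.p6, the mm10 build named in the processing notes. Dusp1 lies at chr17:26505591-26508472 on the minus strand, Dusp10 at chr1:184034381-184075636 on the plus strand, Dusp16 at chr6:134715468-134807063 on the minus strand and Dusp2 at chr2:127336159-127338377 on the plus strand. Dusp4 lies at chr8:34807610-34819894, Dusp5 at chr19:53529145-53541809 and Dusp6 at chr10:99263231-99267489, all on the plus strand.

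The proximal promoters were read for short motifs, among them the kind through which CREB and ATF1 are known to act. The 250 bases before a RefSeq start were found for 6 of the 7 genes (all but Dusp4; the start used for Dusp16 lies inside the span given above) and searched on both strands for the cAMP response element TGACGTCA (CRE), for its shorter form TGACG, and for the AP-1 element TGANTCA. Dusp1, Dusp16 and Dusp6 are printed 5′ to 3′ on the strand of the gene, as the p38/JNK-directed gene that differed in every gate, a p38/JNK-directed gene called in none, and the main ERK-directed gene of monocytes and macrophages. Capitals mark TGACG and TGACGTCA.
Dusp1, chr17:26508473-26508722, minus strand: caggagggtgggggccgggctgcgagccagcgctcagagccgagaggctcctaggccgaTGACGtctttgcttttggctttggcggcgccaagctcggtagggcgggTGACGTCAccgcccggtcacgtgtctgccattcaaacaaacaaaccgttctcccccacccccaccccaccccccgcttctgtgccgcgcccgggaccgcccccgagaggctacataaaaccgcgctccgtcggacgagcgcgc
Dusp16, chr6:134792629-134792878, minus strand: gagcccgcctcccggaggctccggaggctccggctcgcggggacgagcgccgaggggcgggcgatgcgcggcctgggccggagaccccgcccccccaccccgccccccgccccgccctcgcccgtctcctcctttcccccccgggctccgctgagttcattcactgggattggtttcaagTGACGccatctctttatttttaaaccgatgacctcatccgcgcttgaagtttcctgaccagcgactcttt
Dusp6, chr10:99262981-99263230, plus strand: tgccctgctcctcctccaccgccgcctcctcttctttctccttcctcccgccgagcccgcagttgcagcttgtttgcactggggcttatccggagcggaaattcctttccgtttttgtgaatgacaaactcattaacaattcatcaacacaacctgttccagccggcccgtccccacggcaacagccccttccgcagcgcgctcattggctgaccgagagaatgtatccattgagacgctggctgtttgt
Among the 6 promoters only that of Dusp1 held the full CRE, at 143 bases before the start, together with a separate TGACG at 191 bases. The palindrome counts as TGACG on each strand, so Dusp1 had 3 matches to the shorter form. Dusp16 had 1 match to TGACG, at 70 bases, and Dusp5 (not printed) had 1 on the opposite strand, at 55 bases. No match to any of the motifs was found in these windows of Dusp2, Dusp6 and Dusp10, and none of the 6 windows held TGANTCA. Of 32851 mouse promoter windows of the same length, 1.55% held the CRE, 17.8% held TGACG and 6.75% held TGANTCA. A match is a description of letters and not of a bound site. The printed windows were picked with the calls known, and the part of these motifs in the differences between libraries was not tested.

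The transcript that differed most widely between libraries was Dusp1, the p38/JNK phosphatase of the immediate-early response. It was the most abundant of the 7 in neutrophils of all 3 libraries and was lower in p38i and in p38KO than in vehicle in all 6 gates. Neutrophils held 2287 CPM of Dusp1 in vehicle (95% interval 2247 to 2328), 727 in p38i (706 to 749) and 1502 in p38KO, from 12271, 4555 and 5983 UMIs. The intervals of the 3 libraries did not overlap. The level in p38i neutrophils was 3.14-fold below vehicle (log2 ratio -1.65, interval -1.70 to -1.60), and that in p38KO neutrophils 1.52-fold below (-0.61, -0.65 to -0.56).

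Monocytes held the next highest level, 547 CPM in vehicle, 167 in p38i and 167 in p38KO. Here both libraries stood equally far below vehicle, at log2 ratios of -1.71 (-1.82 to -1.60) and -1.71 (-1.86 to -1.57). Macrophages held 117 CPM in vehicle, 22.1 in p38i and 51.6 in p38KO, so that the p38KO level lay between the other two. The ratios were -2.41 (-2.79 to -2.05) for p38i, 5.32-fold lower, and -1.19 (-1.38 to -0.99) for p38KO.

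The other 3 gates showed the same order of the libraries. T cells held 87.1 CPM of Dusp1 in vehicle, 26.0 in p38i and 47.2 in p38KO, with ratios of -1.75 (-2.13 to -1.37) and -0.88 (-1.20 to -0.57). NK cells held 125, 22.0 and 42.2 CPM from 85, 15 and 38 UMIs, 5.66-fold lower in p38i and 2.95-fold lower in p38KO. Dendritic cells held 80.2, 32.7 and 44.9 CPM from 39, 25 and 46 UMIs, with ratios of -1.29 (-2.08 to -0.53) and -0.84 (-1.48 to -0.18). The dendritic cell value for p38KO was the only one of the 12 that turned with the processing: it was 0.62 when each cell was thinned to 1500 UMIs. It was -0.47, short of the call, when cells with mast, B or tumor cell transcripts were left out.

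**Figure D1:**
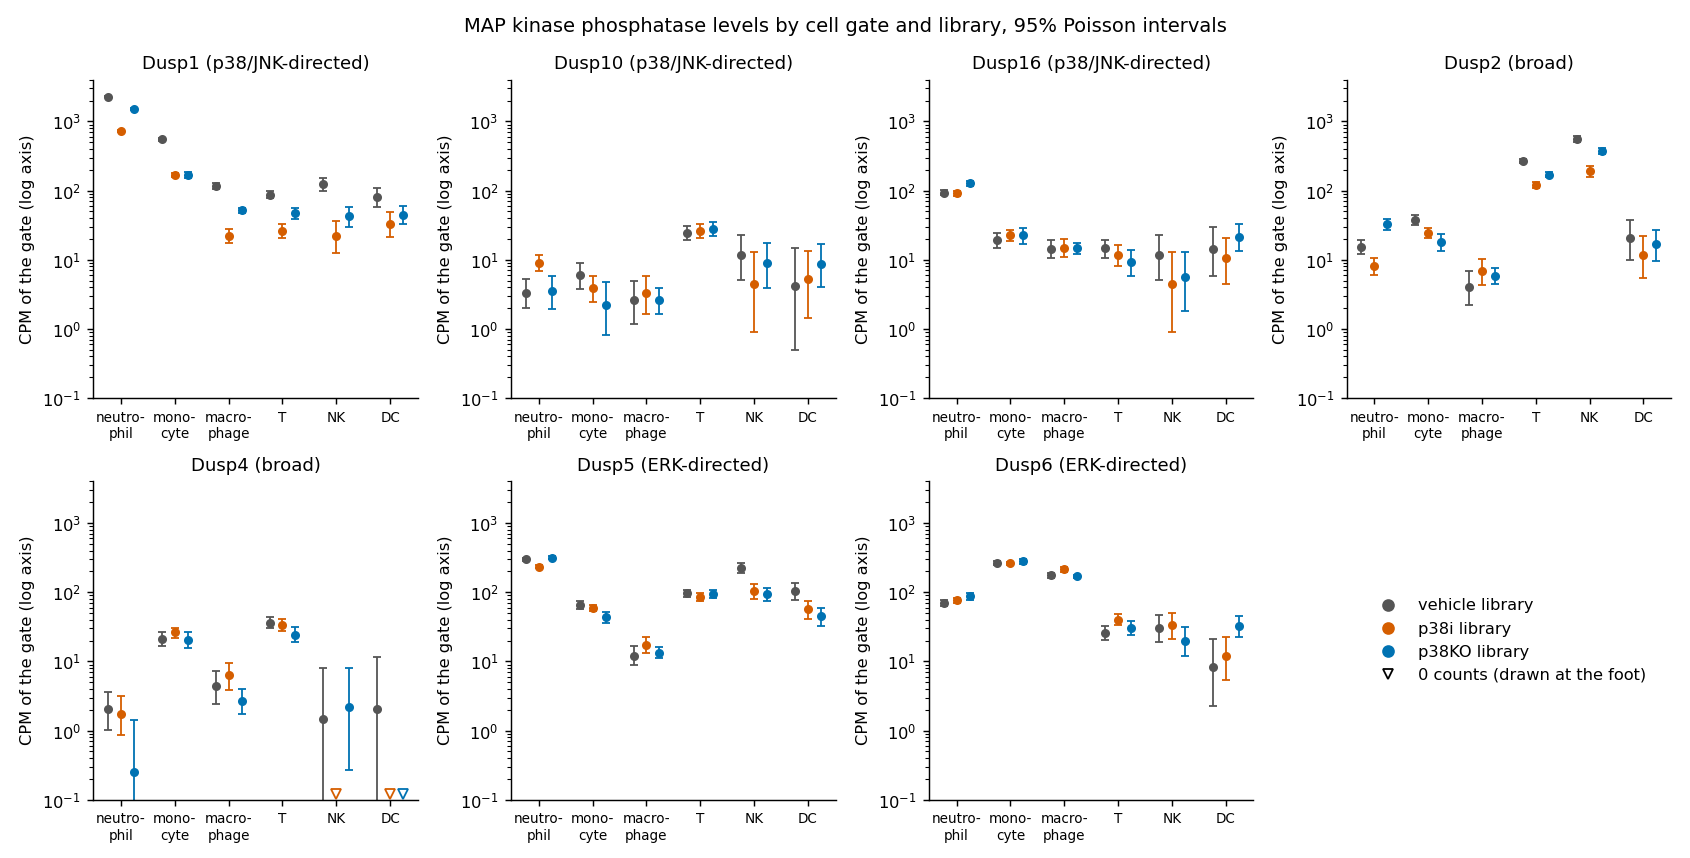
Level of each phosphatase gene in CPM of the gate (log axis) in the 6 cell gates, 1 panel per gene, with a point per library (gray vehicle, orange p38i, blue p38KO) and bars for the 95% Poisson interval of the count. Dusp1 in neutrophils stands at 2287, 727 and 1502 CPM and is lowest in p38i in each gate, or level with p38KO in monocytes, while Dusp6 is near level across libraries in monocytes (264, 262 and 279 CPM).

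These counts can be read against the share of all genes that were called in the same direction. In p38i, 3.16% of genes with enough counts were called lower in neutrophils, 2.91% in monocytes, 4.22% in macrophages, 2.33% in T cells, 6.09% in NK cells and 3.64% in dendritic cells. Dusp1 was called lower in 6 of 6 gates there. In p38KO the shares called lower were 2.63% in neutrophils, 2.28% in monocytes, 3.33% in macrophages, 3.17% in T cells, 6.66% in NK cells and 3.90% in dendritic cells, and Dusp1 was again called lower in 6 of 6. Ranked by ratio, Dusp1 was within the lowest 0.832% of genes in every gate of p38i, and at 4.38% in neutrophils, 3.74% in dendritic cells, 2.37% in T cells and 0.34% in monocytes of p38KO. The median gene stood at 0.11 on the log2 scale in neutrophils of both contrasts and in T cells of p38KO, and closer to 0 elsewhere. Both contrasts use the same vehicle library, so they are not independent of each other.

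The share of cells with at least 1 Dusp1 UMI differed in the same way after every cell was thinned to 1500 UMIs. It was 76.1% of neutrophils in vehicle (exact Clopper-Pearson 95% interval 74.0% to 78.1%), 49.3% in p38i (47.2% to 51.5%) and 61.3% in p38KO (58.9% to 63.8%). Without thinning the shares were 83.6%, 60.0% and 68.9%, at median depths of 2529, 2274 and 2180 UMIs. Thinned T cells held Dusp1 in 14.0%, 4.40% and 8.26% of cells, and thinned monocytes in 38.1%, 18.5% and 20.5%. Transcripts of the neutrophil marker list were present in the other gates too. Whether they came from neutrophils or from the gated cells themselves, as in monocytes, was not tested. The neutrophil marker list of 6 genes summed to 819, 1591 and 735 CPM in T cells, which as a share of its level in neutrophils would carry 10.1, 5.56 and 7.83 CPM of Dusp1 in vehicle, p38i and p38KO. Taking that amount off left 77.0, 20.4 and 39.4 CPM in T cells, and the same subtraction left 469, 139 and 133 CPM in monocytes and 97.9, 17.6 and 36.9 in macrophages.

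Within gates, Dusp1 was followed in 14 sets of cells defined by 1 or more transcripts. Some of the neutrophil and monocyte sets overlap, so a cell can count in more than 1 set. The sets reuse cells of the gates above, so their calls are not separate evidence. The share of all genes called was taken for the gates only. Calls in sets, here and for the other members below, thus have no such share beside them. In p38i it was called lower in all 13 sets with enough counts. In p38KO it was called lower in 11 of 13, and the 2 sets without a call are CD8 T cells with Pdcd1 and neutrophils with Ccl3 and no Cxcr2. Those Ccl3 neutrophils held 2133 CPM of Dusp1 in vehicle, 1121 in p38i and 2274 in p38KO. The p38KO ratio was 0.09 (-0.05 to 0.24) there, against -0.70 (-0.75 to -0.65) in neutrophils with Cxcr2, which held 2335, 702 and 1437 CPM. CD8 T cells with Pdcd1, the gene of the inhibitory receptor PD-1, held 37.9, 6.49 and 32.2 CPM from 45, 6 and 9 UMIs, and those without it 60.7, 13.8 and 5.21 CPM from 39, 7 and 3 UMIs. Few counts stand behind the 2 CD8 sets, and the p38KO ratio in the set with Pdcd1 had an interval of -1.45 to 0.82.

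Regulatory T cells, marked by Foxp3, were the T cells richest in Dusp1. They held 239 CPM in vehicle, 57.9 in p38i and 71.4 in p38KO, at ratios of -2.05 (-2.76 to -1.39) and -1.75 (-2.38 to -1.15). CD4 T cells without Foxp3 held 110 CPM in vehicle, 27.2 in p38i and 58.8 in p38KO. Monocytes with Chil3, a gene of newly arrived classical monocytes, held 633, 181 and 164 CPM, and those with Arg1, the arginase gene of tumor-conditioned myeloid cells, held 355, 141 and 138. Cycling macrophages (Mki67 or Top2a) held 93.2, 14.3 and 30.9 CPM and other macrophages 139, 26.0 and 70.9. In every one of these sets the vehicle interval lay above both others.

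**Figure D2:**
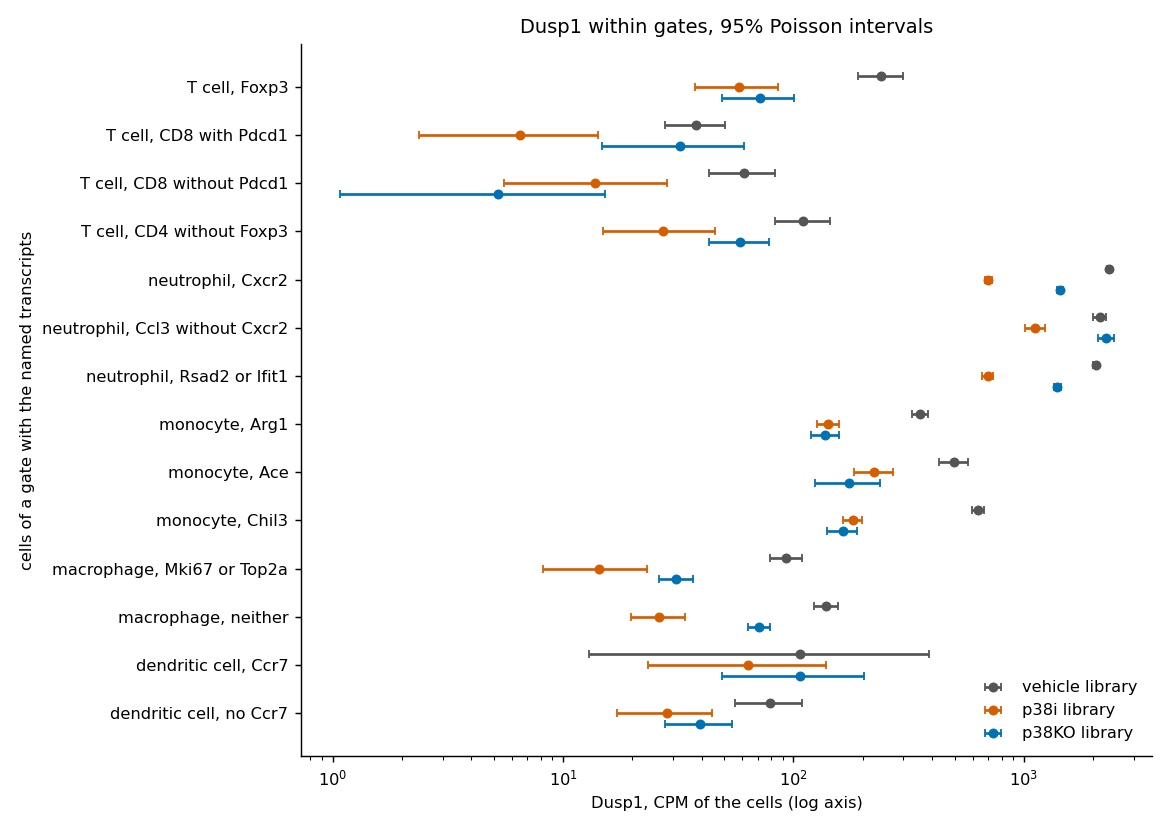
Dusp1 in CPM (log axis) in 14 sets of cells within the gates, with a point per library (gray vehicle, orange p38i, blue p38KO) and bars for the 95% Poisson interval. Vehicle is the highest point in most rows, and the p38KO point reaches vehicle in neutrophils with Ccl3 and no Cxcr2 (2274 against 2133 CPM).

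Dusp16, a JNK and p38 phosphatase that shuttles between cytoplasm and nucleus, gave no call in any gate of either contrast. It was highest in neutrophils, at 93.4 CPM in vehicle, 90.8 in p38i and 127 in p38KO. The p38KO value lay above the other two, at a log2 ratio of 0.45 (0.27 to 0.63) that stayed below the threshold for a call. In the other gates its levels were between 4.40 and 22.5 CPM. Monocytes held 19.2, 22.5 and 22.4 CPM and macrophages 14.5, 14.9 and 14.6, and these did not differ beyond counting error. Within gates it was called higher in neutrophils with Cxcr2 in p38KO and in monocytes with Arg1 in both contrasts. Those monocytes held 15.1, 25.0 and 25.9 CPM from 25, 62 and 39 UMIs. Their intervals came close to 0 (0.73, 0.037 to 1.46, and 0.78, 0.022 to 1.57), and both ratios rest on the same 25 vehicle UMIs.

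Dusp10, which dephosphorylates p38 and JNK and limits T cell activation, was highest in T cells, at 24.6 CPM in vehicle, 26.3 in p38i and 27.8 in p38KO. These did not differ beyond counting error (ratios 0.10, -0.38 to 0.57, and 0.17, -0.31 to 0.65). In neutrophils Dusp10 was low, at 3.35, 9.10 and 3.51 CPM from 18, 57 and 14 UMIs, and was called higher in p38i (1.44, 0.65 to 2.29), in a gate where 8.65% of genes were called higher. After thinning that ratio was 0.83 and no longer called, with Dusp10 in 8 vehicle and 21 p38i neutrophils. In monocytes it was called lower in p38KO, from 22 UMIs in vehicle to 6 (-1.43, -3.02 to -0.08). NK and dendritic cells held at most 9 UMIs of Dusp10 in any library.

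Dusp2, a nuclear phosphatase induced by activation of lymphocytes, was the leading member of NK cells and T cells. NK cells held 561 CPM in vehicle, 191 in p38i and 374 in p38KO, and the 3 intervals did not overlap. The ratios were -1.56 (-1.86 to -1.27), 2.94-fold lower, and -0.59 (-0.80 to -0.37). The p38KO value in NK cells was -0.29 after thinning, short of the call. T cells held 271, 120 and 170 CPM, 2.26-fold lower in p38i and 1.59-fold lower in p38KO, and again the intervals stood apart.

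Within T cells Dusp2 was called lower in all 4 sets of p38i. CD8 T cells without Pdcd1 held 335, 116 and 179 CPM, CD8 T cells with Pdcd1 308, 148 and 236, CD4 T cells without Foxp3 255, 121 and 183, and Foxp3 T cells 183, 99.5 and 125. In p38KO it was called lower in 2 of these sets, those with Foxp3 (-0.55, -1.09 to -0.0061) and CD8 without Pdcd1 (-0.91, -1.26 to -0.56). The other 2 fell short of the 0.5 threshold, CD8 with Pdcd1 at -0.38 (-0.79 to -0.0030) and CD4 without Foxp3 at -0.48 (-0.84 to -0.13). All 4 intervals lay below 0, so the calls do not set these T cell sets apart. Monocytes held 37.3, 24.6 and 18.01 CPM of Dusp2, called lower in both contrasts (-0.60 and -1.05). Neutrophils held little of it and differed in opposite directions, at 15.3 CPM in vehicle, 7.98 in p38i and 32.6 in p38KO from 82, 50 and 130 UMIs. Those ratios were -0.94 (-1.47 to -0.41) and 1.09 (0.68 to 1.51). In p38KO neutrophils 10.0% of genes were called higher. Macrophages held 4.05, 6.87 and 5.84 CPM, with no call. Macrophages without Mki67 or Top2a held 2.71, 8.53 and 6.91 CPM from 5, 19 and 33 UMIs. That set was called higher in p38i (1.66, 0.19 to 3.43) and not in p38KO (1.35, -0.02 to 3.06).

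Dusp4, a nuclear phosphatase of ERK and JNK induced by T cell receptor signaling, was low throughout. T cells held 36.3 CPM in vehicle, 33.6 in p38i and 24.4 in p38KO, the last called lower (-0.58, -1.04 to -0.12). Monocytes held 21.3, 26.2 and 20.6 CPM, with no call. No set of T cells was called for Dusp4, and the sets did not share a direction in p38KO. CD8 T cells with Pdcd1, of which the p38KO library held 48 against 145 in vehicle, held 53.9, 46.5 and 28.6 CPM, and those without it 20.2, 25.6 and 3.47, the last from 2 UMIs. Foxp3 T cells held 47.3, 64.8 and 71.4 CPM and CD4 T cells without Foxp3 22.1, 19.5 and 26.3. Dusp4 was at 0 in NK cells of p38i and in dendritic cells of p38i and p38KO, where a count of 0 allows up to 4.40, 3.93 and 2.93 CPM.

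Dusp5, the nuclear ERK phosphatase, had its highest levels in neutrophils and NK cells. Neutrophils held 299 CPM in vehicle, 233 in p38i and 317 in p38KO, with ratios of -0.36 (-0.47 to -0.26) and 0.08 (-0.03 to 0.19), neither of them a call. NK cells held 226, 103 and 94.5 CPM from 154, 70 and 85 UMIs, and both were called lower, at -1.14 (-1.56 to -0.72) and -1.26 (-1.66 to -0.86). Dendritic cells held 105, 56.3 and 44.9 CPM and were called lower as well (-0.90 and -1.22). In p38i that dendritic cell ratio was -1.67 without cells that held mast, B or tumor cell transcripts. After thinning it was -2.72, but only 8 of 37 vehicle and 3 of 73 p38i dendritic cells then held Dusp5. T cells held 97.3, 84.9 and 94.8 CPM and did not differ beyond counting error over the whole gate. Among its sets Dusp5 was called lower in CD8 T cells without Pdcd1 in both contrasts (79.4, 39.3 and 33.0 CPM, ratios -1.01 and -1.27) and in Foxp3 T cells of p38i (225, 139 and 216 CPM, ratio -0.69). Monocytes held 65.1, 59.1 and 43.7, the last called lower (-0.57, -0.90 to -0.25). The monocyte gate of p38KO also held tumor cell keratin and Epcam transcripts, which summed to 164 CPM against 5.40 in vehicle and 4.07 in p38i. Without cells that held mast, B or tumor cell transcripts the monocyte Dusp5 ratio was -0.49, short of the call, and that of Dusp1 was -1.65.

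The NK gate of p38KO also held mast cell transcripts, with 5 marker genes summing to 1545 CPM against 98.2 in vehicle and 57.2 in p38i. Leaving out the 15 p38KO, 9 vehicle and 2 p38i NK cells with at least 3 UMIs of mast, B or tumor cell markers gave -1.29 for Dusp5, -0.57 for Dusp2 and -1.68 for Dusp1 in p38KO against vehicle, close to the values over all NK cells. In NK cells 3.05% of genes of p38i and 4.45% of p38KO were called higher, none of the 7 among them.

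Dusp6, the cytoplasmic ERK phosphatase, was the leading member of macrophages in all 3 libraries, and of monocytes in p38i and p38KO. Monocytes held 264 CPM in vehicle, 262 in p38i and 279 in p38KO, at ratios of -0.01 (-0.13 to 0.11) and 0.08 (-0.06 to 0.22). Those intervals, which cover counting error only, leave out a difference between these libraries of the size that called a gene. Macrophages held 176, 214 and 170 CPM and gave no call (0.29, 0.13 to 0.44, and -0.05, -0.19 to 0.09). Neutrophils held 70.1, 76.6 and 87.1 CPM, with no call either.

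Dusp6 was called higher in 2 gates. T cells held 25.9, 40.2 and 30.5 CPM, higher in p38i (0.63, 0.21 to 1.06). After thinning that ratio was no longer called, and 3.50%, 4.89% and 4.96% of T cells held Dusp6. Among the 4 sets of T cells, p38i had a call only in CD8 T cells with Pdcd1 (0.99, 0.42 to 1.57). Those held 37.0, 73.6 and 46.5 CPM, while CD8 T cells without Pdcd1 held 40.5, 27.5 and 45.1. In p38KO Dusp6 was called higher in CD4 T cells without Foxp3 (1.58, 0.16 to 3.33), from 5 UMIs in vehicle to 24. Dendritic cells held 8.23, 11.8 and 32.2 CPM from 4, 9 and 33 UMIs, called higher in p38KO (1.97, 0.48 to 3.93). Thinning cannot check that call, since only 0 of 37 vehicle and 1 of 72 p38KO dendritic cells then held Dusp6. The thinned ratio of 0.04 uses 0.5 in place of the vehicle count of 0. Cycling macrophages held 145, 225 and 163 CPM, called higher in p38i. For reference, the shares of all genes called higher in p38i were 3.72% in monocytes, 2.97% in macrophages, 5.34% in T cells and 5.39% in dendritic cells. In p38KO they were 7.91% in monocytes, 9.33% in macrophages, 8.20% in T cells and 5.77% in dendritic cells.

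**Figure D3:**
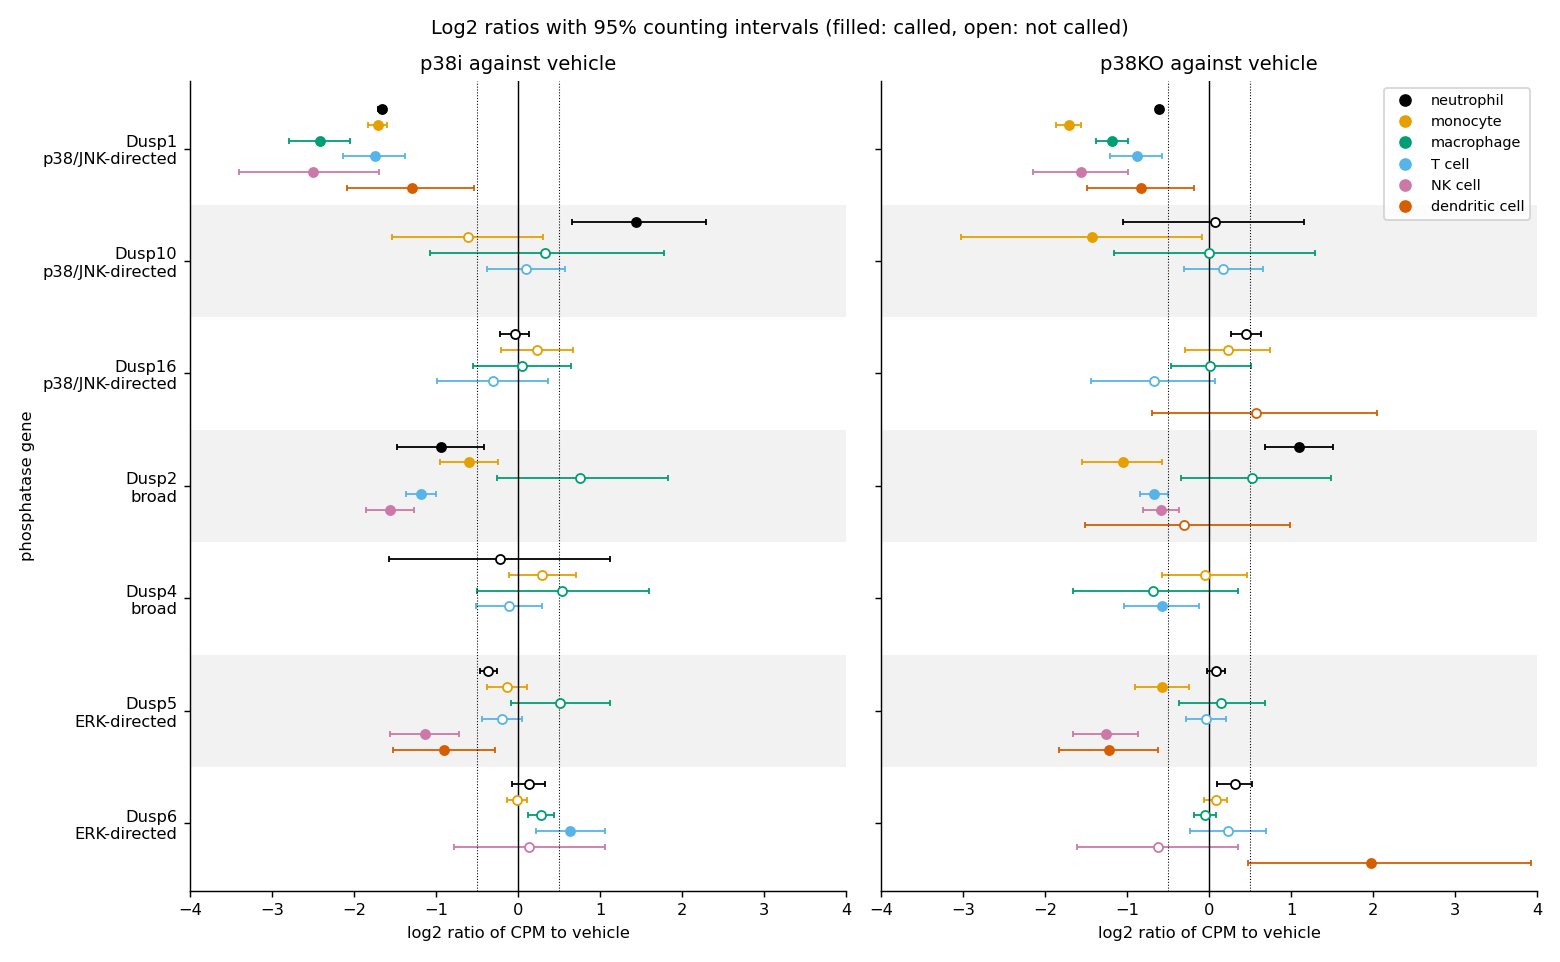
Log2 ratio of CPM to vehicle for the 7 genes (rows) in the 6 gates (colors) with 95% counting intervals, for p38i at left and p38KO at right, leaving out values with under 20 counts. Filled points are called and dotted lines mark 0.5 either way; all 6 Dusp1 points lie left of the lower line in both panels, Dusp6 lies near 0 in monocytes, and Dusp2 of neutrophils lies at -0.94 at left and 1.09 at right.

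Over the 42 values of 7 genes in 6 gates, p38i had 34 with enough counts, of which 12 were called lower and 2 higher. The p38/JNK-directed genes gave 6 lower and 1 higher, all 6 of them Dusp1, the ERK-directed genes 2 lower and 1 higher, and Dusp2 with Dusp4 4 lower. In p38KO, 36 had enough counts, with 14 lower and 2 higher. The share of all genes called lower ranged over the gates from 2.33% to 6.09% in p38i and from 2.28% to 6.66% in p38KO, and the share called higher from 2.97% to 8.65% and from 4.45% to 10.0%. With cells thinned to 1500 UMIs the counts were 10 lower and 0 higher in p38i, and 8 lower and 2 higher in p38KO. Thinning leaves fewer UMIs behind each value, most of all in deep gates such as macrophages (median 17362 UMIs in vehicle). A call lost there need not mean that the difference was lost, but the ratios themselves did not all hold. After thinning, 46 member ratios stayed within their full-depth interval, 22 left it and 1 reversed. At full depth the p38KO calls were 7 lower among the p38/JNK-directed genes, 3 lower and 1 higher among the ERK-directed genes, and 4 lower and 1 higher for Dusp2 with Dusp4. The lower calls of the p38/JNK-directed genes were thus Dusp1 in 6 of 6 cases for p38i and in 6 of 7 for p38KO.

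The balance of p38/JNK-directed to ERK-directed transcripts was taken as the summed UMIs of Dusp1, Dusp10 and Dusp16 over those of Dusp5 and Dusp6 within a gate, a ratio that no scaling between libraries can move. Neutrophils held 6.45 p38/JNK-directed UMIs per ERK-directed UMI in vehicle, 2.67 in p38i and 4.04 in p38KO. The log2 balance changed by -1.27 in p38i (-1.37 to -1.17) and by -0.67 in p38KO (-0.78 to -0.57). Monocytes passed from an excess of p38/JNK-directed transcripts in vehicle, 1.74 per ERK-directed UMI, to an excess of ERK-directed ones, 0.603 in p38i and 0.593 in p38KO. These changes were -1.53 (-1.68 to -1.38) and -1.55 (-1.74 to -1.36).

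Macrophages held 0.715, 0.174 and 0.376 p38/JNK-directed UMIs per ERK-directed UMI, with changes of -2.04 (-2.35 to -1.73) and -0.93 (-1.14 to -0.71). T cells held 1.03, 0.512 and 0.672, with changes of -1.001 (-1.33 to -0.68) and -0.61 (-0.93 to -0.29). In NK cells the change was -1.35 in p38i (-2.12 to -0.58) but -0.22 in p38KO (-0.82 to 0.38), where Dusp1 and Dusp5 were both lower. In dendritic cells neither change stood clear of counting error (-0.29, -1.12 to 0.53, and 0.16, -0.56 to 0.88). Dusp1 carried the balance: with Dusp1 left out, the changes in neutrophils were 0.30 and 0.31, those in monocytes 0.11 and 0.00034, and those in T cells -0.061 and -0.11. Counting Dusp2 and Dusp4 with the ERK-directed genes brought the T cell changes to -0.35 and -0.16, since Dusp2 was lower too.

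**Figure D4:**
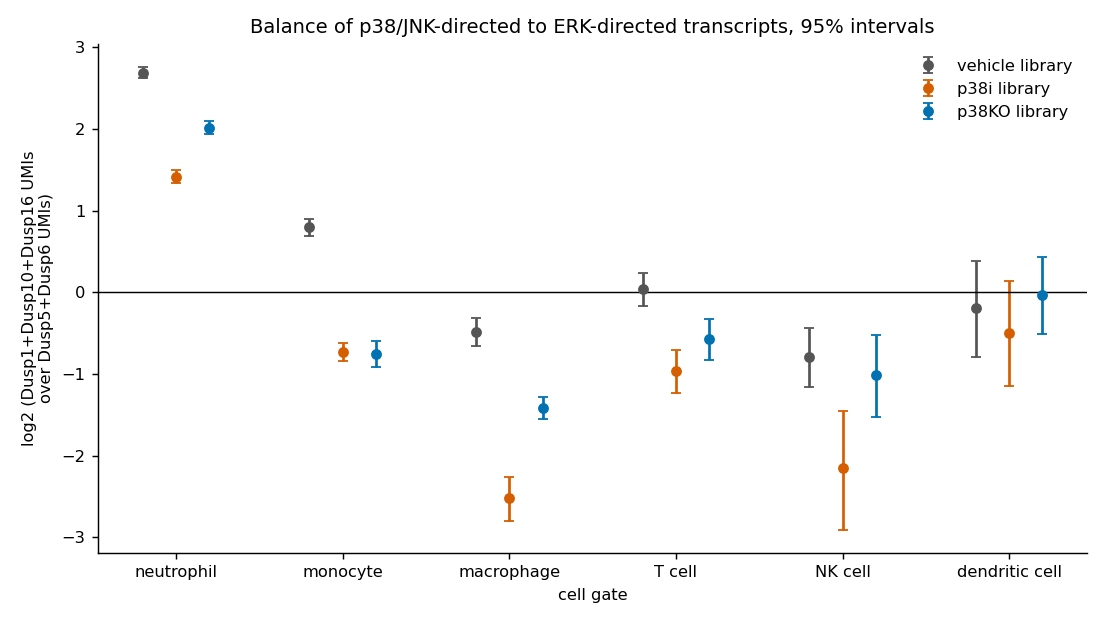
Log2 of the summed UMIs of Dusp1, Dusp10 and Dusp16 over those of Dusp5 and Dusp6 in each gate, with a point per library (gray vehicle, orange p38i, blue p38KO) and bars for the 95% interval. Values above 0 mean more p38/JNK-directed than ERK-directed transcripts; monocytes cross 0, from 0.80 in vehicle to -0.73 in p38i and -0.75 in p38KO.

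As a fraction of all UMIs of the 7 genes, Dusp1 made up 82.5% in vehicle neutrophils, 63.4% in p38i and 72.6% in p38KO, and 57.0%, 29.6% and 30.2% in monocytes. Dusp6 made up 27.5%, 46.3% and 50.5% of them in monocytes and 53.1%, 75.2% and 65.1% in macrophages. In NK cells Dusp2 made up 58.0%, 53.3% and 68.3%. The 7 genes together summed to 2771, 1146 and 2069 CPM in neutrophils and to 960, 565 and 553 in monocytes.

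Other genes of the pathway were read for comparison. The remaining MAP kinase phosphatases Dusp7, Dusp8 and Dusp9 gave no call in any gate, and only Dusp7 had enough counts, in 4 gates of each contrast. Of 9 genes of MAP kinases and their target MK2 (Mapkapk2), 6 or 7 had enough counts per gate. In p38i none was called lower and 1 was called higher in each of 4 gates, and in p38KO 1 was called lower, the p38 isoform gene Mapk13 in neutrophils (55.9 CPM in vehicle, 34.9 in p38KO). The JNK gene Mapk9 was called higher in neutrophils (3.73 to 7.53 CPM) and T cells of p38KO, and the JNK gene Mapk8 in T cells. Mapk14, the gene of p38a itself, held between 29.1 and 68.1 CPM over all gates and libraries and was called higher in 1 comparison, macrophages of p38i (29.2 CPM in vehicle, 43.3 in p38i, ratio 0.57). Among all genes, between 2.33% and 6.09% were called lower in a gate of p38i and between 2.28% and 6.66% in p38KO. Between 2.97% and 8.65% were called higher in p38i and between 4.45% and 10.0% in p38KO.

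Among 9 other feedback genes of ERK, the receptor signaling inhibitor Spry2 was called lower in both contrasts in monocytes, macrophages, T cells and NK cells. NK cells held 248 CPM of Spry2 in vehicle, 110 in p38i and 115 in p38KO. In neutrophils it was called higher in p38KO, from 14.9 to 27.9 CPM. Neutrophils had no lower call in this list, and 3 genes were called higher there in p38i: Spred1 (0.98), Spred2 (0.91) and Phlda1 (0.92). Among all genes of that gate, 3.16% were called lower and 8.65% higher in p38i, and 2.63% and 10.0% in p38KO. Phlda1 was also called higher in neutrophils (0.85) and dendritic cells of p38KO but lower in macrophages (-1.47). Spry1 was called higher in monocytes of p38KO, from 3 to 23 UMIs, and lower in T cells (-0.89). Etv5, a transcription factor gene that follows ERK activity, held 60.5, 48.4 and 56.4 CPM in macrophages with no call and was called lower in monocytes of p38i (26.2 to 18.4 CPM), and the feedback adaptor Spred1 held 74.5, 86.1 and 61.4 in monocytes with none. Ier3, a stress-responsive gene, was called lower in monocytes, macrophages and NK cells of p38i and in T cells of p38KO. For all genes, the shares called lower ranged over the gates from 2.33% to 6.09% in p38i and from 2.28% to 6.66% in p38KO. The shares called higher ranged from 2.97% to 8.65% and from 4.45% to 10.0%.

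Dusp1 is itself an immediate-early gene, and 10 others of that class were read beside it. In p38i, 3 were called lower in neutrophils, 7 in monocytes, 4 in macrophages, 4 in T cells, 5 in NK cells and 9 in dendritic cells, with 2 called higher in macrophages and 1 in T cells. In p38KO, 0 were called lower in neutrophils, 3 in monocytes, 3 in macrophages, 2 in T cells, 5 in NK cells and 7 in dendritic cells, with 1 called higher in monocytes and 1 in macrophages. All 10 had enough counts, except for 9 in NK cells of p38i and 9 in dendritic cells of p38KO. Over the gates, 2.33% to 6.09% of all genes were called lower in p38i and 2.28% to 6.66% in p38KO. The shares called higher were 2.97% to 8.65% and 4.45% to 10.0%. The median log2 ratio of the list in p38i was -0.73 in monocytes and -1.31 in dendritic cells, beside 0.032 and 0.044 for all genes with enough counts. In p38KO neutrophils, where Dusp1 was lower, the list had a median of 0.23 beside 0.11 for all genes.

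The members of that list did not move as 1 block. Fos, the AP-1 subunit gene, was called lower in all 6 gates of p38i and in 5 of p38KO, and in monocytes it held 684, 272 and 289 CPM. Egr1, a gene driven chiefly through ERK and serum response factor, was called higher in macrophages of both contrasts (22.0, 33.1 and 42.5 CPM) in T cells of p38i and in monocytes of p38KO, but lower in dendritic cells of both. It was also called lower in NK cells of p38i. Zfp36, which encodes the mRNA decay factor tristetraprolin, held 1446, 899 and 1694 CPM in neutrophils, lower in p38i and uncalled in p38KO. Junb, at 2651, 2093 and 3358 CPM in neutrophils, was not called there in either contrast.

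**Figure D5:**
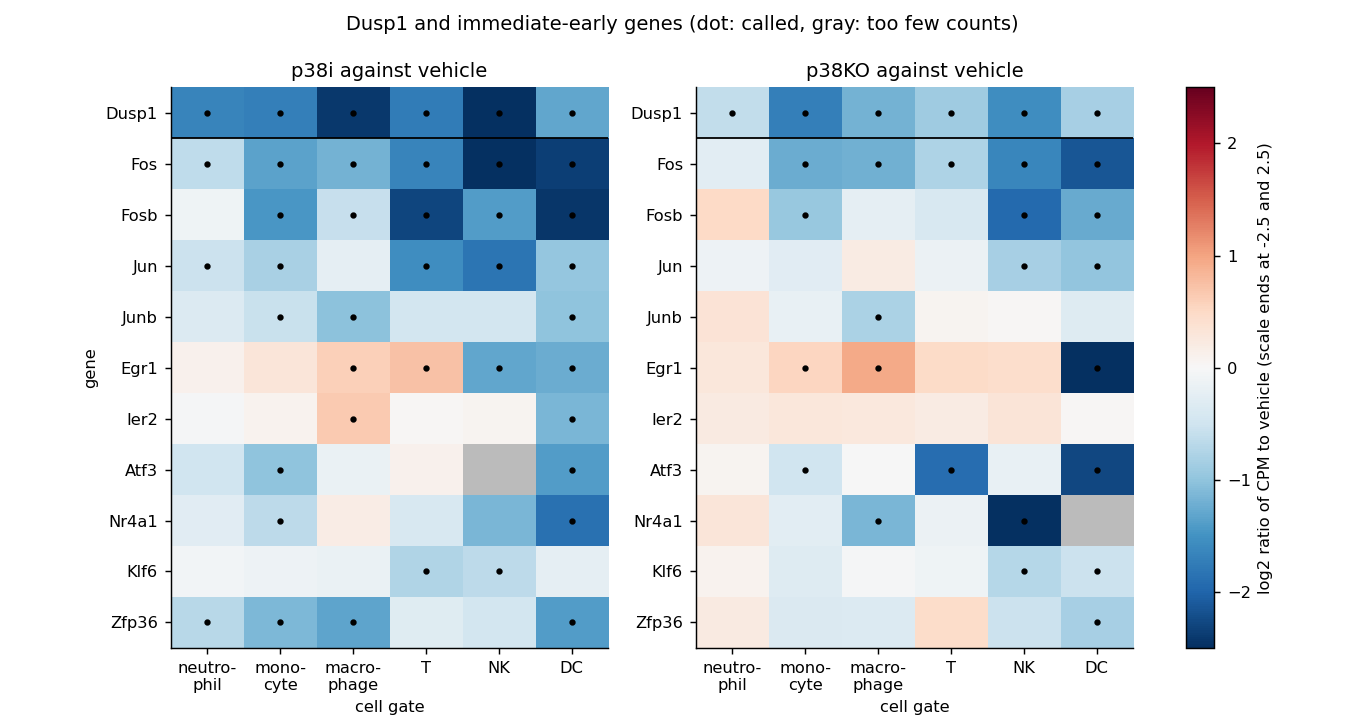
Log2 ratio of CPM to vehicle for Dusp1 (top row) and 10 immediate-early genes in the 6 gates, p38i at left and p38KO at right, in blue for lower and red for higher, with dots on called values and gray for under 20 counts. Dusp1 and Fos are blue across the p38i panel; in p38KO neutrophils Dusp1 (-0.61) is dotted and none of the 10 is.

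Across the 18 combinations of gate and library, the genes whose log2(CPM + 10) followed each phosphatase most closely were sought among 1404 genes that reached 200 CPM in some gate. These correlations describe 18 points from 3 libraries, in which gates of 1 library share its depth. For Dusp1 they were Cap1 (Pearson r = 0.963) and Junb (0.960). For Dusp16 they were Trim30b (0.975) and Mirt2 (0.971), both abundant in neutrophils, and for Dusp2 Fasl (0.957) and Klrc2 (0.956), both lymphocyte genes. Dusp10 was followed by Icos (0.933) and Lat (0.926), Dusp5 by Ddx5 (0.954) and Srsf5 (0.949), and Dusp6 by Clec5a (0.937). Dusp4 had the loosest match, Fyb (0.832) and Tcf25 (0.792). The correlations take in differences between gates as well as between libraries, so a close match need not hold within 1 gate. In neutrophils Junb held 2651, 2093 and 3358 CPM in vehicle, p38i and p38KO, where Dusp1 held 2287, 727 and 1502.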

How the data were processed

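CD45+ cells of 4T1 tumors were sequenced as 1 library each for vehicle, p38i and p38KO. The authors deposited unnormalized UMI counts per gene and barcode, in matrices whose headers name Cell Ranger 6.0.0. The submitters' processing notes name the mm10 build and also R 4.2.1 and Seurat 5. Barcodes passed with 1500 or more UMIs, 300 or more genes and a mitochondrial share no higher than 20%, and were gated by raw UMIs of 8 genes. No doublet caller was run. Counts were summed per gate and library, and given as CPM with exact Poisson intervals, as ratios with exact conditional binomial intervals (0.5 standing in for a count of 0), and as shares of cells after thinning to 1500 UMIs with random seed 1. The interval of a change in balance is a normal approximation on the log scale. Intervals cover counting error only. With 1 library a group there is no test, and batch cannot be told apart from condition. The ratio and calling steps were tested on simulated data. Members, gene lists and gates were chosen with earlier results of these data known. Genes were named by a rule that takes the 7 members, list genes with at least 20 counts over both libraries, and the 2 genes most like each member in pattern, of which 1 is not reported here. Alternatives changed the gate, the cell filter, the scaling, the weight and depth of cells, and the genes in the balance. Promoter windows come from RefSeq on GRCm38.p6. Tools were Python 3.11.15, numpy 2.4.6, scipy 1.17.1, pandas 2.3.3 and matplotlib 3.10.9.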

Additional observations from a re-analysis of the deposited data

Results flagged for a closer look

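Dusp2 differed in opposite directions in neutrophils of the 2 contrasts. Its log2 ratio to vehicle was -0.94 in p38i and 1.09 in p38KO, each clear of 0 by its counting interval. Within p38KO the neutrophil value of 1.09 also stood against the other gates in which Dusp2 was called, with -1.05 in monocytes, -0.67 in T cells and -0.59 in NK cells. With 1 library a group these differences were not tested, and both contrasts rest on the same vehicle library. The p38KO neutrophil value was 0.93 under the stricter gate, 0.98 after thinning and 1.14 without cells that held mast, B or tumor cell transcripts.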

How the results depend on the processing

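Dusp1 was below vehicle in 42 of 42 alternative values of p38i (between -3.15 and -0.87) and in 41 of 42 of p38KO, the exception being dendritic cells after thinning, at 0.62. That exception rests on 3 of 37 vehicle and 9 of 72 p38KO cells that held Dusp1. Calls of members numbered 12 lower and 2 higher in p38i and 14 and 2 in p38KO, and after thinning, with fewer UMIs behind each value, 10 and 0, and 8 and 2. Thinning also moved 22 member ratios out of their interval and reversed 1, while 46 stayed. Higher calls were 1 in p38KO under the stricter gate, and 5 in p38i and 4 in p38KO with cells weighted equally and 5 in p38i with neutrophil RNA subtracted, both without an interval in the call. Changes in balance that left their interval were -0.84 in p38KO neutrophils (stricter gate), -1.16 in p38KO macrophages (equal cells), 0.58 and 1.12 in dendritic cells of p38i and p38KO (thinning), and 0.85 in p38i dendritic cells (without other-type cells). Without Dusp1, p38i gave 0.30 in neutrophils, 0.11 in monocytes, -0.21 in macrophages, -0.061 in T cells and -0.50 in NK cells. For p38KO these were 0.31, 0.00034, 0.050, -0.11 and 0.47, with 1.26 in dendritic cells. With Dusp2 and Dusp4 beside the ERK-directed genes, T cells gave -0.35 and -0.16. Scaling to the median gene moved neutrophil Dusp1 to -1.76 and -0.71, by the median of all genes (0.11 in both contrasts). Subtracting neutrophil RNA and leaving out other-type cells were chosen after the data were seen. The causes of these shifts were not tested. No paired analysis was possible because each group is 1 library. Depth limits the NK and dendritic cell gates, where a member often had under 20 counts.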
